A study of Rattus norvegicus with 12 samples.

Results

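Skeletal muscle genes were followed in RNA from the calvarial bone of rats. This bone forms the roof of the skull, where jaw and scalp muscles lie next to it. The set is 40 genes of the contractile apparatus, its calcium handling and its energy supply, taken by name: array probes were matched to the listed gene names, and the brightest probe stood for each gene. Probes were found for 38 of the 40 names, among 34912 gene names on the array, while Neb and Ryr1 were not analysed here. Of the 38, 14 belong mainly to fast fibres, 7 to slow fibres and 17 to both or to neither. A gene was tested where its probe rose clearly above background on 4 or more of the 12 arrays, as it did for 26 of the 38 (10 fast, 3 slow and 13 other).

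A striated muscle fibre shortens when myosin motors in thick filaments pull on actin in thin filaments. Calcium released from the sarcoplasmic reticulum binds troponin C and so opens the thin filament, and a calcium pump then clears it. Fast and slow fibres build this machine from different genes: fast fibres use Myh1, Myh2 and Myh4 myosins with Tnnt3, Tnni2 and Tnnc2 troponins, and slow fibres use Myh7 with Tnnt1, Tnni1 and Tnnc1. Bone cells do not build sarcomeres, and the labels give calvaria as the only tissue sampled.

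The 3 groups were laser-ablated bone, bur-drilled bone and control bone of rats aged 10 weeks, with 4 arrays each, all taken at 72 h. In laser bone a defect of 8 by 3 mm was made with an Er:YAG laser, whose infrared light removes mineralised tissue, at 20 Hz and 127 mJ per pulse. In bur bone a defect of the same size was drilled. Control bone was not ablated. The treatment protocol has the periosteum, the membrane over the bone, taken off in controls, whereas the design text calls them non-treated. Whether the arrays of a group stand for separate animals is not in the labels. The p-values therefore reflect the spread among these samples, which may be technical, and the small number of arrays limits precision.

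The share of probes well above background was 58.1% to 67.0% per array, and no spot was saturated. All 8 bone markers examined, among them Dmp1, Phex and Alpl, were well above background on all 12 arrays. Control arrays lay on 1 slide and treated arrays on another, each with its own scan, and bur and laser arrays lay in different slide columns. Against control, slide and treatment therefore cannot be told apart, and between laser and bur the same holds for slide column and treatment. The replicate number is also the row of the slide, so row and number cannot be told apart either. Levels below are log2 signals relative to each array's 75th percentile. They are compared within a gene and not between genes, because probes differ in brightness. In bulk tissue, fewer cells of a type and less RNA per cell cannot be told apart.

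The myosin heavy chain genes are close relatives, and their probes are shown so that the measured stretches can be compared. The probes of the 4 adult forms are given 5′ to 3′, with the longest run that each shares with another of the 4 in capitals. They were placed on rn4 by the array files at chr10:53917888-53917947 (Myh1, + strand), chr10:53889275-53889334 (Myh2, + strand), chr10:53951729-53951788 (Myh4, + strand) and chr15:33073880-33073939 (Myh7, - strand).
Myh1: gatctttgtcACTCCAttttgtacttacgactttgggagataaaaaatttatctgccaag
Myh2: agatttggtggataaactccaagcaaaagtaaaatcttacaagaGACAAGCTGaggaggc
Myh4: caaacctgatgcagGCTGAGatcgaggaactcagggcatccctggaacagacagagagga
Myh7: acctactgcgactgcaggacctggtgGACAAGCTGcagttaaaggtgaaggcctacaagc
Each probe has 60 bases. The longest run in common was 9 bases, between Myh2 and Myh7, whose probes matched at 29 of 44 bases in their best ungapped overlap. The runs of Myh1 and of Myh4 with Myh2 were 6 bases long. The probes were compared with each other only, and whether one also reads the transcript of another form was not tested.

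Fast fibre genes stood out by their spread within each group, and the same replicate number carried it. Averaged over the 10 tested fast genes, the log2 deviation from the 12-array mean was 1.13, -0.78, -1.13 and -1.03 on laser replicates 1 to 4. It was 2.90, -0.43, -1.05 and -1.08 on the bur replicates and 3.72, -0.34, -0.68 and -1.21 on the control replicates. Replicate 1 was thus the only array above 0 in each group. The slow genes averaged 0.63, 0.00, -0.23 and -0.32 in laser, -0.13, 0.02, -0.46 and -0.46 in bur and 1.10, 0.23, -0.88 and 0.49 in control. Replicate 1 was highest for 3 of 3 slow genes in laser and in control bone, and for 0 of 3 in bur bone. The other muscle genes had replicate 1 at 0.39 in laser, below both fast and slow genes. In bur (1.14) and control (1.30) their replicate 1 lay between slow and fast genes. Their remaining arrays were all at -0.08 or lower.

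**Figure D1:**
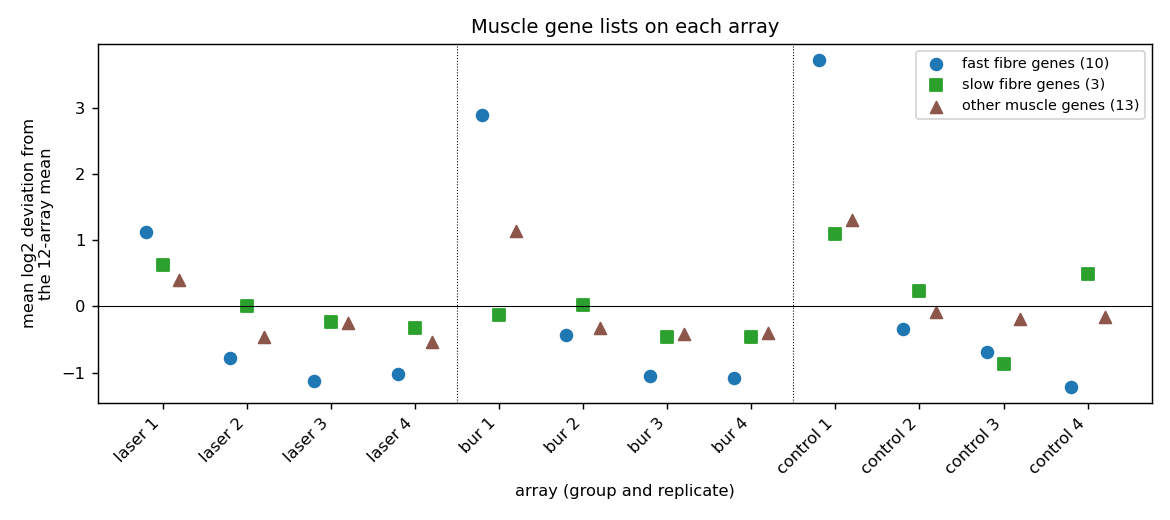
Mean log2 deviation from the 12-array mean on each array, for the 10 tested fast fibre genes (circles), 3 slow fibre genes (squares) and 13 other muscle genes (triangles). Fast genes are above 0 on laser 1 (1.13), bur 1 (2.90) and control 1 (3.72) and below 0 on the other 9 arrays.

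Replicate 1 was the highest array in all 3 groups for 16 of the 26 tested muscle genes (61.5%), made up of 9 of 10 fast, 0 of 3 slow and 7 of 13 other genes. Among all 22718 genes tested this held for 545 (2.40%). No muscle gene had replicate 2, 3 or 4 highest in all groups. Among all genes 375 (1.65%), 511 (2.25%) and 1267 (5.58%) did, and 0 of 26 is near such small shares. For 12 of the 26 (46.2%), 8 of them fast, replicate 1 exceeded the mean of the other replicates by over 2-fold in every group, against 85 of all genes (0.374%). Among fast genes the median excess of replicate 1 over the mean of replicates 2 to 4 was 2.18 in laser, 3.95 in bur and 4.42 in control bone on the log2 scale. These counts describe a pattern noticed in these data, and were not tested.

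Among tested muscle genes, Myh1 had the largest SD in laser and bur bone and Pvalb in control bone. Myh1, the heavy chain of fast type IIX fibres, was at -2.14, -5.73, -6.52 and -6.69 in laser, -0.13, -4.81, -6.06 and -6.55 in bur and 0.12, -4.84, -4.72 and -6.96 in control bone. Replicate 1 of each group exceeded all of its other arrays by more than 3 log2 units, and the groups overlapped throughout. Myh4, the heavy chain of type IIB fibres, was at -6.70, -6.69, -7.53 and -7.46 in laser, -4.51, -6.80, -7.17 and -6.55 in bur and -2.72, -8.52, -8.37 and -8.81 in control bone. It was the only tested fast gene whose replicate 1 was not highest in every group, because laser replicates 1 and 2 were level. Myh4 was well above background on 1 laser, 3 bur and 1 control array.

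Tnni2, the fast inhibitory troponin, was at -1.30, -3.40, -3.10 and -3.05 in laser, 0.62, -3.09, -2.98 and -3.39 in bur and 0.97, -2.99, -3.26 and -3.48 in control bone. Leaving replicate 1 aside, its 9 other arrays lay within -3.48 to -2.98 whatever the treatment. Atp2a1, the fast fibre calcium pump SERCA1, was at -1.71, -3.29, -4.44 and -3.40 in laser, 0.26, -3.01, -3.85 and -3.83 in bur and 0.71, -2.81, -3.00 and -3.46 in control bone. Pvalb, the calcium buffer parvalbumin, was at -4.22, -6.32, -6.68 and -7.70 in laser, -1.80, -5.83, -6.46 and -6.49 in bur and -0.95, -5.26, -5.97 and -8.18 in control bone. Both genes had control 1 highest, then bur 1, then laser 1. Actn3, Tnnc2, Tnnt3, Mylpf (now Myl11, the fast regulatory light chain) and Myoz1 followed the same order, so that 9 of the 10 fast genes had control 1 highest, then bur 1, then laser 1. Myh4 had bur 4 after control 1 and bur 1.

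Among the muscle genes used by both fibre types, the order depended on the gene. Ckm, muscle creatine kinase, was at -1.08, -3.46, -2.81 and -3.04 in laser, -0.19, -2.88, -3.11 and -3.18 in bur and 0.21, -1.52, -2.68 and -1.17 in control bone. Acta1, skeletal actin, was at -5.76, -6.49, -6.72 and -7.28 in laser, -4.06, -6.17, -6.92 and -7.66 in bur and -3.23, -5.67, -5.89 and -5.00 in control bone. Ckm and Acta1 shared the high replicate 1, and their control arrays 2 to 4 were above the treated arrays of the same number. Ttn, the spring protein titin, was at -5.48, -7.10, -7.54 and -8.45 in laser, -2.12, -6.35, -6.49 and -7.23 in bur and -4.42, -6.60, -7.32 and -6.84 in control bone, with bur 1 the highest array. Its 3 probes were dim, and it was well above background on 6 of the 12 arrays.

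Des, the intermediate filament desmin, which pericytes and smooth muscle also make, was at -2.65, -3.25, -2.21 and -2.98 in laser, -2.81, -3.44, -2.55 and -2.87 in bur and -2.68, -3.41, -3.05 and -3.88 in control bone. Replicate 1 of Des was not the highest in laser or bur. Eno3, muscle enolase, ranged from -0.89 to 0.51 and Ldb3, a Z-disc protein, from -3.86 to -2.83 over all 12 arrays. Both had a range of under 2 log2 units, narrow beside that of the fast genes.

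**Figure D2:**
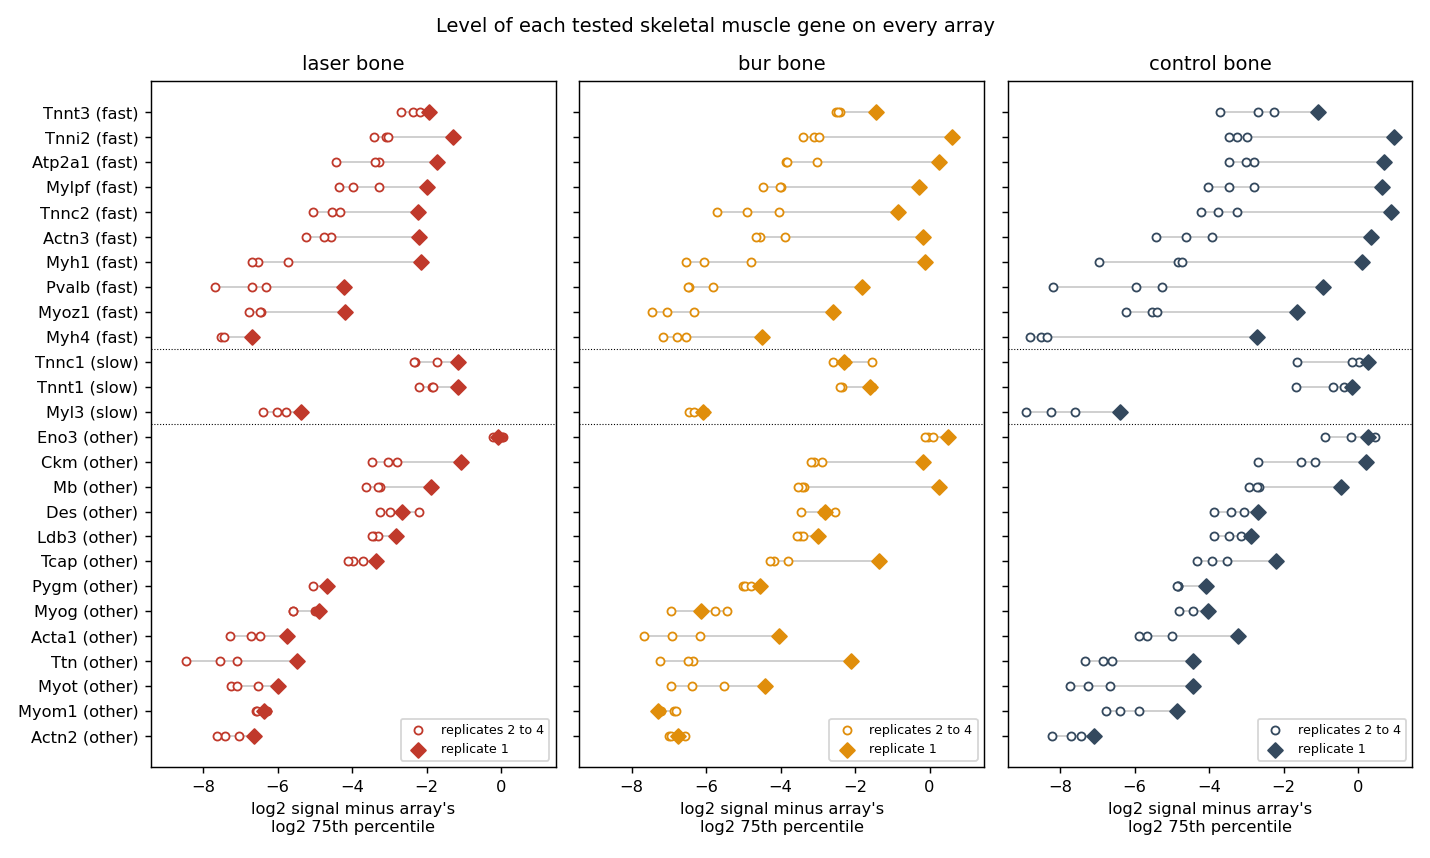
Log2 level of each of the 26 tested muscle genes relative to the array's 75th percentile, for laser, bur and control bone. Filled diamonds are replicate 1, open circles replicates 2 to 4, and grey lines span the group. The diamonds stand at the right end for 9 of 10 fast genes in every group, with Tnni2 at -1.30, 0.62 and 0.97.

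The spread of fast genes was several times that of other genes. The median SD over the 4 arrays was 1.16 in laser, 2.04 in bur and 2.23 in control bone for the fast genes, and 0.43, 0.45 and 0.87 for the slow genes. Over all genes it was 0.26, 0.25 and 0.34. Without replicate 1 the median SD of the fast genes was 0.42 in laser, 0.40 in bur and 0.55 in control bone, while that of all genes was 0.23, 0.25 and 0.33. The spread of the fast genes was thus smaller without replicate 1 in each group, and was still above that of all genes.

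**Figure D3:**
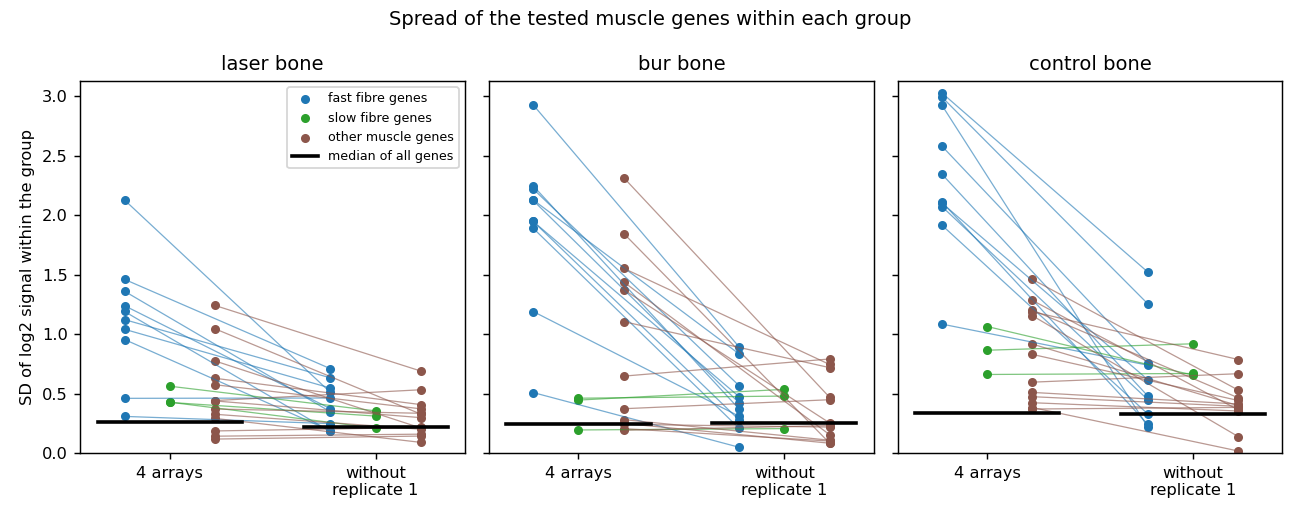
SD of the log2 level within each group for the 26 tested muscle genes, over 4 arrays and without replicate 1, joined by lines. Black bars are medians over all 22718 genes. The median SD of fast genes is 1.16 in laser, 2.04 in bur and 2.23 in control bone over 4 arrays, and 0.42, 0.40 and 0.55 without replicate 1.

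The 12 muscle genes below the filter also appeared mainly on replicate 1. Of their 17 detections, 14 were on replicate 1 of a group, with 8 on bur 1, 3 on control 1 and 3 on laser 1. The share of all probes well above background was 66.5% on bur 1, 58.1% on control 1 and 62.9% on laser 1. Myh2, the heavy chain of type IIA fibres, was at -8.93, -9.64, -8.87 and -8.29 in laser, -6.37, -9.76, -9.39 and -8.30 in bur and -8.75, -8.66, -8.83 and -8.98 in control bone, and was well above background on bur 1 alone. Myl1, a fast essential light chain, was detected on bur 1 and control 1, Casq1, the calsequestrin of fast fibres, on control 1, and Mybpc2, fast myosin-binding protein C, on replicate 1 of all 3 groups. Cacna1s, the voltage sensor of excitation, was detected on laser 1, bur 1 and bur 2.

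The slow members under the filter were all detected on bur 1, but followed no single order in laser or control bone. On bur 1 all 7 slow genes were detected, against 3, 3 and 4 on bur 2, 3 and 4. Myh7, the slow heavy chain, was at -7.98, -6.22, -8.66 and -7.52 in laser, -6.86, -8.81, -8.83 and -9.40 in bur and -9.02, -7.99, -8.99 and -9.15 in control bone, detected on laser 2 and bur 1. Tnni1, the slow inhibitory troponin, was at -7.26, -8.01, -6.51 and -7.42 in laser, -6.40, -7.86, -7.88 and -6.39 in bur and -7.35, -7.38, -8.70 and -6.77 in control bone, detected on bur 1 and bur 4. Myl2 was detected on bur 1, and Mybpc1 on laser 1 and bur 1. Control bone had no detection of Myh7, Tnni1, Myl2 or Mybpc1, the slow genes under the filter. Trim63, a ubiquitin ligase of muscle wasting, was well above background on no array, at -9.58 to -8.83 in laser, -9.67 to -9.08 in bur and -8.81 to -8.50 in control bone, and Myom2 and Smpx were likewise not detected. The number of the 38 genes detected per array was 27, 27, 19 and 19 in laser, 33, 27, 23 and 23 in bur and 28, 20, 20 and 19 in control bone. Of all probes, 62.9%, 65.5%, 59.8% and 60.0% were well above background on the laser arrays. The shares were 66.5%, 67.0%, 63.4% and 63.0% on the bur arrays and 58.1%, 58.4%, 59.7% and 60.0% on the control arrays.

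Marker lists of other tissues were read on the same arrays by their mean log2 deviation. Bur 1 was the highest bur array for epidermis (0.97, against -0.48 to 0.10 on the other bur arrays), for Schwann cell and neuron (0.72, against -0.48 to -0.20), for cardiac muscle (0.55, against -0.38 to -0.03), for tendon and fascia (0.47, against -0.18 to 0.04) and for fat (0.33, against -1.41 to -0.61). Control 1 was the highest control array for tendon and fascia (0.87, against -1.46 to 0.16), for fat (1.78, against 0.68 to 1.64) and, by a small margin, for epidermis (0.00, against -0.44 to -0.14). Laser 1 led the laser arrays for Schwann cell and neuron, epidermis and smooth muscle, at 0.39, 0.30 and 0.73. Of the 8 marker lists, epidermis alone was highest on replicate 1 in all 3 groups by its mean, as the fast genes were, although laser 3 (0.29) was level with laser 1. By their medians, laser 3 (0.38) exceeded laser 1 (0.18) for epidermis, and control 4 (2.20) exceeded control 1 (2.14) for fat. For cardiac muscle the bur 1 median (-0.07) lay below those of bur 3 (-0.02) and bur 4 (-0.03). By its mean, smooth muscle was lowest on bur 1 among the bur arrays, at -0.32. Each array had 4 to 9 detected genes of each of these lists. The part of these tissues in the muscle signal was not tested. Bone markers were at 0.36, 0.11, 0.80 and 0.54 in laser, 0.00, -0.38, -0.10 and 0.25 in bur and -0.62, -0.11, -0.27 and -0.57 in control bone, and bur 1 was neither the highest nor the lowest bur array.

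Laser bone was compared with control bone across all genes. Myl3, the light chain of slow and ventricular muscle, rose, while the slow troponins Tnnc1 and Tnnt1 fell. No fast gene passed without pairing, while the fast genes Myoz1 and Tnnc2 passed as lower when same-numbered arrays were paired. In all, 3 of the 26 tested muscle genes were called (11.5%, 1 higher and 2 lower), where 22.3% of all genes were called (9.26% higher and 13.0% lower; limma, Benjamini-Hochberg adjusted p under 0.05). All 3 slow genes tested were called, with 0 of 10 fast and 0 of 13 other genes. Of these, Myl3 passed the filter through the treated arrays in which it was high, so its call adds no support to the counts. The median log2 difference was -1.03 for fast, -1.04 for slow and -0.29 for other muscle genes, and 0.02 for all genes.

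Tnnc1, the troponin C of slow and cardiac muscle, was at -1.16, -1.71, -2.32 and -2.34 in laser and 0.27, 0.03, -1.65 and -0.15 in control bone. Laser minus control was -1.51 (SE 0.42, limma adjusted p = 0.0289). A second Tnnc1 probe gave -1.39. Tnnt1, the slow tropomyosin-binding troponin, was at -1.17, -1.85, -2.20 and -1.82 in laser and -0.16, -0.68, -1.66 and -0.38 in control bone. Its difference was -1.04 (SE 0.34, limma adjusted p = 0.04998), which lies at the threshold. Control replicate 3 was within the laser range for both genes.

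Myl3 was at -5.38, -6.03, -5.77 and -6.40 in laser and -6.41, -8.24, -8.91 and -7.60 in control bone. It was well above background on all 4 laser arrays but on only 1 control array, so it passed the filter through treated arrays. Its difference was 1.90 (SE 0.43, limma adjusted p = 0.0174). The highest control array lay just under the lowest laser array. With normexp background correction the difference was 0.06 (limma adjusted p = 0.818), while the median of all genes moved to -0.08. Myog, myogenin, the transcription factor of muscle differentiation, was at -4.89, -5.58, -5.00 and -5.59 in laser and -4.03, -4.43, -4.81 and -4.04 in control bone, a difference of -0.94 (limma adjusted p = 0.0527) that did not pass.

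The replicate numbers met the criterion for pairing laser with control arrays, and with the number as a block 7 muscle genes were called, 1 higher and 6 lower, where 25.4% of all genes were called. The added calls were Acta1 (-1.62, limma adjusted p = 0.0245), Ckm (-1.31, adjusted p = 0.0234), Myoz1 (-1.27, adjusted p = 0.0401) and Tnnc2 (-1.46, adjusted p = 0.0404), all lower in laser bone. The block cannot change a difference, since each number occurs once in every group, so only the p-values differ between the fits. Thus 2 of 10 fast genes were called with the pairing and 0 of 10 without it. In a fit on laser and control arrays alone no muscle gene was called, with Myl3 at an adjusted p of 0.0521 and Tnnc1 at 0.0641, while 7.74% of all genes were. Leaving out 1 array at a time left Tnnt1 called in 2 of 12 fits, Tnnc1 in 6 and Myl3 in 12.

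Bur bone was set against the same control arrays, so these values share their controls with the comparison above. Here 6 of the 26 tested muscle genes were called (23.1%, 2 higher and 4 lower), where 26.2% of all genes were called (9.99% higher and 16.2% lower). Myl3 and Actn2 were higher in bur bone, and Myog, Tnnc1, Tnnt1 and Myom1 were lower. No fast gene was called, and the median log2 difference was -0.17 for fast, -1.25 for slow and -0.02 for other muscle genes, with -0.0001 for all genes.

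Myog was at -6.14, -5.76, -6.94 and -5.44 in bur bone, below all 4 control arrays given above. Its difference was -1.74 (SE 0.32, limma adjusted p = 0.00586), and it was called in all 12 fits that left out 1 array. Tnnc1 was at -2.30, -1.54, -2.59 and -2.25 in bur bone, a difference of -1.80 (SE 0.42, limma adjusted p = 0.0130), also called in 12 of 12 fits. Its second probe gave -1.56. Tnnt1 was at -1.60, -1.54, -2.35 and -2.40 in bur bone, a difference of -1.25 (SE 0.34, limma adjusted p = 0.0233) called in 8 of 12 fits. Control replicate 3 again fell among the bur arrays for both troponins.

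Myl3 was at -6.08, -6.45, -6.05 and -6.34 in bur bone, with control replicate 1 inside that range. Its difference was 1.56 (SE 0.43, limma adjusted p = 0.0238). Since Myl3 passed the filter through treated arrays, this call adds no support to the count above. Myom1, myomesin of the M band, was at -7.30, -6.86, -6.82 and -7.22 in bur, against -4.86, -6.40, -6.78 and -5.89 in control bone. The difference was -1.07 (SE 0.33, limma adjusted p = 0.0355), and without control replicate 1 it was -0.69 (limma adjusted p = 0.0568). Myom1 was well above background on only 2 bur and 2 control arrays, and was called in 6 of 12 fits that left out 1 array. Actn2, the Z-disc actinin of all fibres and the heart, was at -6.76, -6.57, -7.00 and -6.94 in bur, against -7.09, -7.44, -7.72 and -8.22 in control bone. No control array had it well above background, and it was at least 1.27-fold higher in bur bone (limma adjusted p = 0.0427, called in 3 of 12 fits). It was well above background on 4 bur arrays and 1 laser array, so it passed the filter only through the bur group in which it was high, and its call adds no support to the count above. In laser bone Actn2 was at -6.63, -7.03, -7.43 and -7.62, and Myom1 was at -6.36, -6.58, -6.29 and -6.57. With normexp Myl3 and Actn2 turned, to -0.23 and -0.27, while the median of all genes moved to -0.24.

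**Figure D4:**
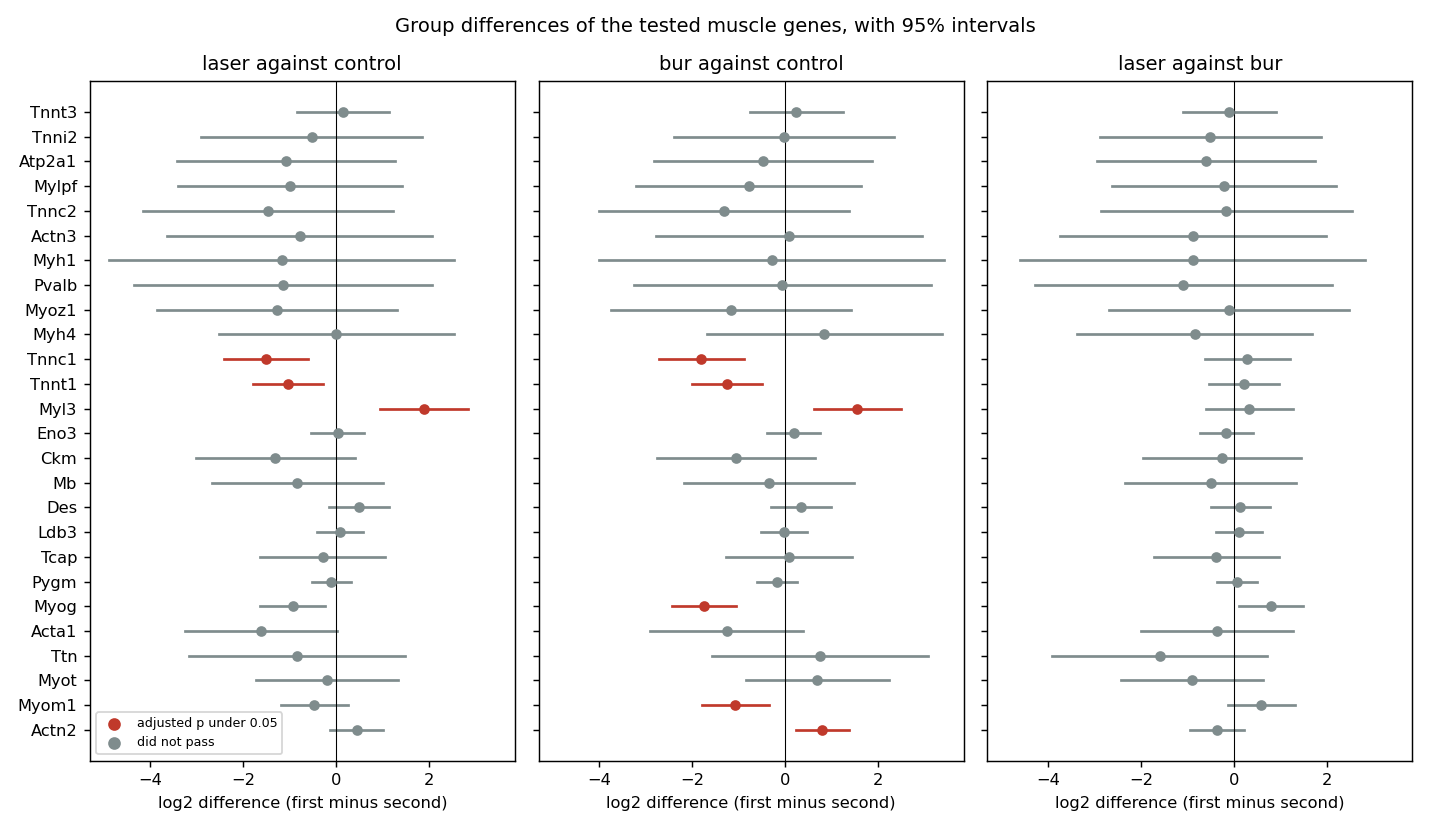
Log2 difference with its 95% interval for each of the 26 tested muscle genes in laser against control, bur against control and laser against bur. Red marks an adjusted p under 0.05: 3, 6 and 0 genes. The intervals of fast genes are wide in this fit without pairing, as for Myh1 from -4.89 to 2.55 in laser against control.

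In the fit without pairing, the fast genes were measured with wide intervals. The 95% interval of Myh1 was -4.89 to 2.55 in laser minus control and -4.00 to 3.43 in bur minus control, and that of Tnni2 was -2.90 to 1.85 and -2.39 to 2.35. This fit leaves the excess of replicate 1 that the groups share within the spread. With the number as a block, the limma adjusted p in laser against control was 0.0582 for Myh1 and 0.343 for Tnni2. Without the block it was 0.637 and 0.748. The median difference of the fast genes turned with single arrays. Without control replicate 1 it was 0.24 in laser minus control and 0.86 in bur minus control. Without bur replicate 1 it was -1.30 in bur minus control. With replicate 1 of every group left out together, an alternative chosen after seeing the data, 6.09% of all genes were called in laser against control and 4.89% in bur against control. Myl3 and Myh4 were then called as higher in both, and no other muscle gene was. Tnnc1 was then at -1.53 in laser minus control (limma adjusted p = 0.0772) and -1.54 in bur minus control (adjusted p = 0.0834). No size is given for Myl3 or Myh4, since none of the 3 control arrays left had either well above background, and Myh4 was so on 1 of the 3 laser arrays left.

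Laser bone was compared with bur bone to set the 2 ways of cutting side by side, and no muscle gene passed the test. Of the 26 tested, 0 were called, as were 0% of all genes, with limma adjusted p-values of 0.9998 for every muscle gene. At an unadjusted p under 0.05, 574 of the 22718 genes and 1 muscle gene passed. That gene was Myog, with a difference of 0.80 (95% interval 0.11 to 1.49, limma unadjusted p = 0.0266). The median difference was -0.55 for fast, 0.29 for slow and -0.26 for other muscle genes, and 0.02 for all genes. Without bur replicate 1 the fast median was 0.39.

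Erythroid markers moved with the slow troponins. All 8 markers of red cell precursors fell in both comparisons with control, where 22.3% and 26.2% of all genes were called, with a median log2 difference of -2.33 for laser and -2.34 for bur. Their mean deviation was 0.52, -1.38, -0.97 and -1.24 on the laser arrays, -0.71, 0.27, -2.11 and -0.66 on the bur arrays and 2.01, 1.57, 0.12 and 2.56 on the control arrays. Laser 1 was the highest laser array, bur 2 the highest bur array and control 3 the lowest control array, and the same held for Tnnc1. Other ranks differed: the lowest laser array was laser 2 for the markers and laser 4 for Tnnc1, and the highest control array was control 4 for the markers and control 1 for Tnnc1. All 8 markers were detected on every array. Their part in the fall of Tnnc1 and Tnnt1 was not tested. Among cardiac markers, 2 of 7 tested were called lower in each comparison and none higher, near the 22.3% and 26.2% of all genes called. The median difference of the 7 was 0.41 in laser and 0.29 in bur minus control. The largest rises, which were not called, were 2.27 and 3.19. Myl7 fell by 1.93 in laser bone and fell by 2.35 in bur bone, and Tnni3 fell by 1.44 in laser bone and fell by 1.34 in bur bone.

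**Figure D5:**
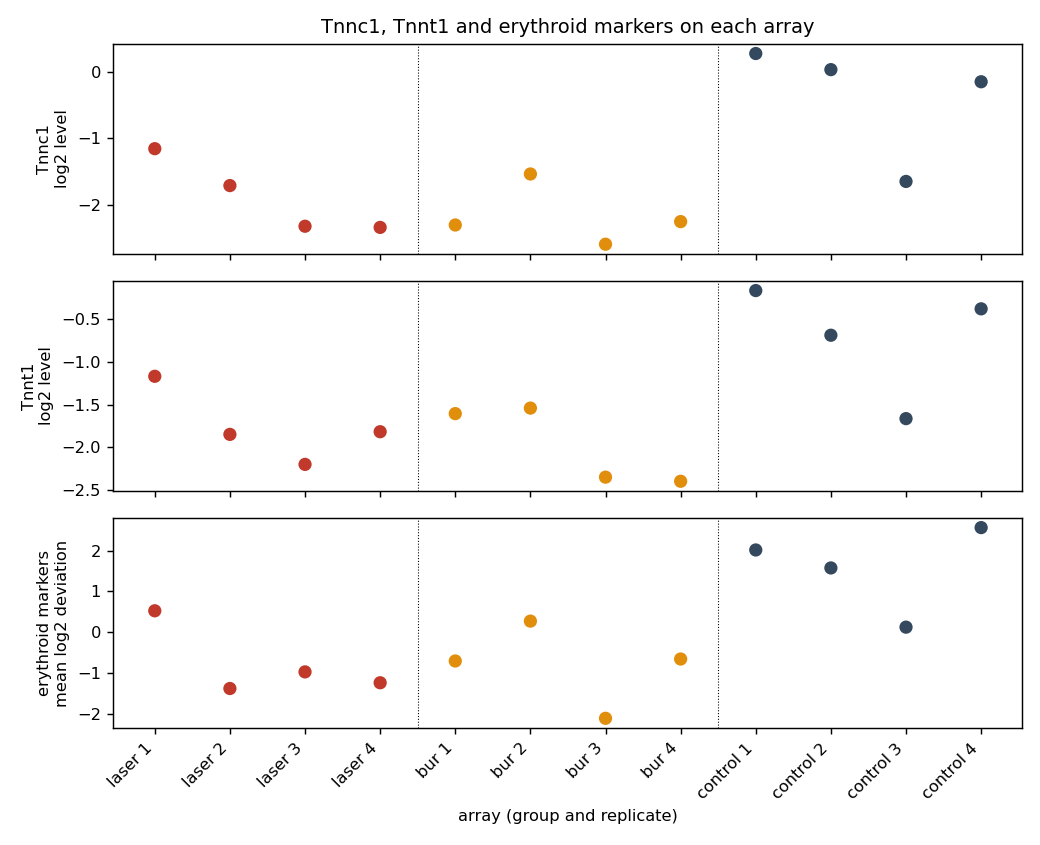
Log2 level of Tnnc1 (top) and Tnnt1 (middle) and mean log2 deviation of 8 erythroid markers (bottom) on each array of laser (red), bur (orange) and control (grey) bone. Control 3 is the lowest control array in all panels, at -1.65, -1.66 and 0.12.

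Further muscle genes outside the set gave mixed directions. Of 28 tested genes of the sarcomere and of the triad, the junction where calcium release is triggered, 2 rose and 5 fell in laser bone and 3 rose and 4 fell in bur bone, with medians of 0.43 and 0.45. These 7 of 28 were near the 22.3% and 26.2% of all genes called. Lmod3, a thin filament nucleator, was well above background on 0 of 4 control arrays. It passed the filter through treated arrays, and was at least 2.47-fold higher in laser bone and at least 2.38-fold higher in bur bone. Mylk2, skeletal myosin light chain kinase, fell by 2.50 in laser bone and fell by 2.45 in bur bone. Jsrp1, a triad protein, fell by 0.59 in laser bone and fell by 0.86 in bur bone. Mylk2 was at -0.09, -0.62, -2.13 and 0.23 on the control arrays, with control 3 lowest as for Tnnc1.

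Of 13 tested genes of muscle energy supply, 1 rose and 1 fell in laser bone, and 1 rose and 2 fell in bur bone. For so few genes these counts were near the 22.3% and 26.2% of all genes called. Fabp3, a fatty acid carrier of heart and muscle, rose by 1.80 in laser and 1.77 in bur bone, while Slc2a4, the insulin-regulated glucose transporter of muscle and fat, fell by 1.17 in laser bone and fell by 1.64 in bur bone. Pfkm, muscle phosphofructokinase, fell by 0.75 in bur bone. Beside Slc2a4, 6 of 8 tested fat markers fell in both comparisons, where 22.3% and 26.2% of all genes were called. Among them was Lep, the leptin gene, which fell by 3.91 in laser bone and fell by 4.27 in bur bone. The part of fat in the fall of Slc2a4 was not tested.

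Of 6 tested myogenic regulators, 2 rose and 1 fell in laser bone and 0 rose and 1 fell in bur bone, beside 22.3% and 26.2% of all genes called. Pax3, a regulator of muscle precursors and neural crest, fell by 2.56 in laser bone and fell by 2.73 in bur bone, at 0.74 to 1.76 in laser, 0.76 to 1.58 in bur and 2.48 to 4.56 in control bone. Mef2c, a factor of muscle, bone and cartilage, rose by 0.86 and Six4 by 1.30 in laser bone. Of 6 tested genes of the nerve endplate and embryonic muscle, 0 rose and 1 fell in laser bone (Colq, which fell by 1.01), and 0 were called in bur bone, against the same shares of all genes. By their mean, endplate and embryonic genes were highest on replicate 1 of each group, at 0.39 in laser, 0.79 in bur and 1.24 in control bone, but by their median bur 1 (0.0405) lay just under bur 3 (0.0423). The regulators were not highest there, at 0.10 in laser, -0.17 in bur and -0.14 in control bone.

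Promoters of genes that were high together on replicate 1 are shown beside that of Tnnt1, a slow gene whose replicate 1 was not highest in every group. Sequences span 250 bases before to 50 after the gene start in RefSeq's annotation of GRCr8, 5′ to 3′ on the gene's strand. E-boxes, the CANNTG motif that myogenic factors can bind, are in capitals. Ckm lies at chr1:88189211-88189510 (+ strand), Atp2a1 at chr1:190475361-190475660 (- strand) and Tnnt1 at chr1:78348785-78349084 (+ strand).
Ckm: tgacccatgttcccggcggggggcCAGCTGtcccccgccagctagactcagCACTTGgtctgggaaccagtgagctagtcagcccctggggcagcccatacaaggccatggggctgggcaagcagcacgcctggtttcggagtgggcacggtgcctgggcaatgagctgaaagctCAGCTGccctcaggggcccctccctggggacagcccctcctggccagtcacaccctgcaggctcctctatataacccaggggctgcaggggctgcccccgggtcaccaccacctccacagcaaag
Atp2a1: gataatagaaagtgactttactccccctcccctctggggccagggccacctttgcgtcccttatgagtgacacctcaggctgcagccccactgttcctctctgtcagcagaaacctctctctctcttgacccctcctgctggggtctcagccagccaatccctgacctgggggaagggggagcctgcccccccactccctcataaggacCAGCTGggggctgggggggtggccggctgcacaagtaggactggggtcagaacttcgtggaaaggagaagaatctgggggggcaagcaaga
Tnnt1: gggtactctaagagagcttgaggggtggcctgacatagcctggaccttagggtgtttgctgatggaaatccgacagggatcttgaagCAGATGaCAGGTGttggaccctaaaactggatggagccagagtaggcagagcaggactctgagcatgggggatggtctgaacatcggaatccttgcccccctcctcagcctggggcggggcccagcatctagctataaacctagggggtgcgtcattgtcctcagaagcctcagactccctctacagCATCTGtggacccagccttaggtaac
The 3 sequences hold 3, 1 and 3 E-boxes. Of the 38 muscle genes, 31 had a promoter in the RefSeq table. An E-box on either strand was found in 27 of these 31 (87.1%) and in 72.1% of all 33469 promoters of that length. CAGCTG, the form of E-box that Ckm and Atp2a1 carry and one kind of the motif above, was in 12 of 31 (38.7%), against 15.1% of all promoters. The MEF2 motif was in 3 of 31 (9.68%), against 0.565% of all promoters, and TATAAA was in 10 of 31 (32.3%), against 14.2%. By fibre type, CAGCTG was in 3 of 12 fast, 2 of 5 slow and 7 of 14 other promoters. A match describes the sequence only and is not a measured binding site.

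The authors' deposited tables of comparisons hold 22 of the muscle genes. At an adjusted p under 0.05, the authors' deposited table of laser against control has 1 muscle gene higher and 6 lower, that of bur against control 1 higher and 4 lower, and that of laser against bur 0. The genes called as lower in laser bone there were Tnnc1 (-1.48), Tnnt1 (-0.995), Ckm (-1.17), Tnnc2 (-1.18), Myog (-0.49) and Acta1 (-0.68). Myl3 (0.40) was called as higher. Tnnc2 is a fast gene, and no fast gene was called in the fit above without pairing. In the authors' deposited table, bur minus control was -1.69 for Tnnc1, -1.24 for Tnnt1, -0.73 for Myog, -0.91 for Ckm and 0.35 for Myl3. The share of all genes called in the authors' tables is not given, so these counts have no background to be read against.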

How the data were processed

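Total RNA was hybridised to 12 Agilent arrays of 1 colour, 4 per group, with 200 ng of RNA labelled per the labels' protocols. The deposited scanner output holds spot intensity on a linear scale, which per the file headers comes from Agilent Feature Extraction (version 11.0.1.1, protocol GE1_1100_Jul11) with probe positions on build rn4. Each deposited processed intensity was turned into log2, and the log2 75th percentile of the non-control spots on its array was subtracted. Further deposited tables hold quantile-normalized log2 values, by their name, and the authors' 3 comparisons, each with log2 differences and p-values. The steps behind those deposited log2 values are not stated in the headers or labels.

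There were 62976 spots per array, 58717 of them non-control spots for 45598 probes. Outlier-flagged spots were left out and spots of a probe averaged. The brightest probe well above background on at least 4 of 12 arrays stood for a gene name, which gave 22718 genes. Of the 38 muscle genes with a probe, 8 had several, and the second Tnnc1 probe was the only other probe past the filter. Accessions matched a current GRCr8 symbol for 35, and 34 kept their name. Tests were two-sided in limma 3.58.1 (R 4.3.3, statmod 1.5.0; lmFit and eBayes, 1 mean per group over all 12 arrays), with Benjamini-Hochberg adjustment over all genes. Where no array of the dimmer group was well above background, "at least N-fold" sets the brighter mean against that group's floor, the higher per array of the probe's signal and the lowest signal well above background. The fit was tested on simulated data.

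Members, fibre types and lists were chosen with earlier results of these data known, so no list was given a p-value. All members may be named; from each other list at most 3 genes were named, those past the threshold with the smallest adjusted p. Same-numbered arrays correlated in their deviations from group means at 0.126 to 0.336 between laser and control and at 0.159 to 0.341 between laser and bur, all above 0.1, so these pairs were taken as paired. Between bur and control the range was -0.05 to 0.284, and they were not. Differently numbered arrays correlated at -0.324 to 0.125 between laser and control and at -0.278 to 0.143 between laser and bur. Between bur and control they did so at -0.427 to 0.321. Some of them thus also exceeded 0.1, and the criterion does not separate same-numbered from other arrays. The main fit, its intervals and its counts leave the pairing out, and the replicate block gives the paired fit. Alternatives were normexp background correction, quantile and another percentile scaling, filters, probe averaging, array weights, 2 groups alone, the replicate block, the deposited log2 table and leaving out arrays.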

Additional observations from a re-analysis of the deposited data

Results flagged for a closer look

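Within groups of 4 arrays, 15 of the 78 combinations of tested muscle gene and group had 1 array far from the other 3 by Dixon's test at the 95% level. About 1 in 20 such groups would be marked by chance if they were independent, but these genes share the same arrays. The share over all genes is not given, so the count is not read as a result about muscle genes. In 14 of the 15 the array that stood apart was replicate 1, and it was the highest.

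Tnni2 was marked in all groups, with replicate 1 at -1.30 in laser, 0.62 in bur and 0.97 in control bone on the log2 scale, against a median of -3.10, -3.09 and -3.26 for the other arrays. In laser bone Myoz1, which encodes a Z-disc protein of fast fibres, was marked too, at -4.20. In bur bone replicate 1 stood apart for Ckm (-0.19), Mb (0.24), Mylpf (-0.29), Pvalb (-1.80), Tcap (-1.37) and Tnnt3 (-1.43). In control bone it stood apart for Atp2a1 (0.71), Mb (-0.46), Myh4 (-2.72) and Pygm (-4.08). The exception was Pygm, muscle glycogen phosphorylase, in laser bone, where replicate 2 was the lowest array at -5.04 and the other arrays had a median of -4.66.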

How the results depend on the processing

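Values were recomputed for 78 gene results under 23 settings, 9 of them called. Every called value kept its sign except 2 under normexp, Myl3 (-0.23) and Actn2 (-0.27) in bur minus control. Some settings could not change a difference: the replicate block, the 2 groups alone and leaving out an array of the group not compared. A kept sign there carries no information. Uncalled differences changed sign 115 times. The muscle genes called in laser against control were 7 with the replicate block, 0 with the 2 groups alone and 1 to 4 when 1 array was left out. In bur against control they were 2 with detection on all 12 arrays, 2 without replicate 1 of every group and 2 to 6 when 1 array was left out. The replicate block gave 9 there, although bur and control arrays were not taken as paired. The share of all genes called is not given for that block or for detection on all 12 arrays. Those counts are therefore not read as results about muscle genes. The block changed no call between laser and bur.

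All genes called in laser against control were 3172 with no detection filter, 1758 with the 2 groups alone, 1383 without replicate 1 of every group and 1245 to 7994 when 1 array was left out. In bur against control they were 1112 without replicate 1 of every group and 2789 to 8397 when 1 array was left out, and between laser and bur 1 with no filter. With no filter the slow genes' median difference was 0.14 in laser and 0.16 in bur minus control, since dim slow genes entered. The median SD of fast genes was 0.69 with normexp in laser bone. When 1 array was left out it was 0.42 to 1.39 in laser, 0.40 to 2.46 in bur and 0.55 to 2.66 in control bone, and 0.42, 0.40 and 0.55 without replicate 1 of every group. That of slow genes was 0.85 in bur bone with no filter and 0.58 in control bone with normexp, and 0.31 to 0.53, 0.18 to 0.48 and 0.26 to 1.05 in laser, bur and control bone when 1 array was left out. Slide as a block was not run, since no slide holds both control and treated arrays.

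Signal over background limits the dim genes: 12 of 38 were not tested, and Neb and Ryr1 were not analysed here. Levels of dim genes have no order near background, and tests without pairing say little about fast genes whose replicate 1 differed from the rest by several log2 units.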

Other observations

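Among the 85 genes whose replicate 1 exceeded the mean of the other replicates by over 2-fold in every group, 12 were muscle genes of the set, and genes of other tissues were among the rest. The genes named here were chosen after their values were seen. Myh8, the perinatal myosin heavy chain, exceeded by at least 3.58 on the log2 scale in each group, and Dhrs7c, an enzyme of the muscle sarcoplasmic reticulum, by at least 1.62. Genes of saliva and gland secretion were there as well: Spt1 (salivary protein 1) by at least 2.94, Mucl1 by at least 2.29, Grpca by at least 2.20, Bpifa2 (parotid secretory protein) by at least 1.96 and Amy2a3 (an amylase) by at least 1.78. Mt4, a metallothionein of stratified epithelium, exceeded by at least 1.93, and Lep, which encodes leptin, by at least 1.59. No test was made of this pattern.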
